A study of Mus musculus with 9 samples.

Results

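The response of RAW264.7 cells to heat-killed Propionibacterium freudenreichii MJ2 was compared with that of cells given RANKL alone, in 3 libraries of each kind out of 9 in the series. Of 23282 gene rows, 10814 were tested, those with 3 or more of these 6 libraries at 10 adjusted reads or above. An adjusted read is 2 to the power of the deposited value, minus 1, and lies close to 1 sequenced read. RAW264.7 is a mouse macrophage line of BALB/c origin, used here at passage 30, that forms osteoclasts when given RANKL. Control cells received RANKL at 50 ng/mL, MJ2 cells received heat-killed bacteria at 10000000 cells/mL, and 3 further libraries came from cells given surface proteins extracted from MJ2 at 10 µg/mL, all for 4 days. The protocol gives RANKL at 50 ng/mL for every library, and the study states that the cells given surface proteins also received RANKL. The labels list the agents together and do not state, library by library, that the MJ2 cells also received RANKL. All libraries come from 1 cell line and separate cultures are not stated, so p-values measure the spread between these samples, which may be technical.

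RANKL binds RANK (Tnfrsf11a) on macrophage precursors and, through TRAF6, NF-kB, AP-1 and calcium signals, raises NFATc1, which switches on the genes for bone resorption, such as the phosphatase TRAP (Acp5) and the protease cathepsin K (Ctsk). Bacterial lipoproteins, peptidoglycan fragments and nucleic acids are sensed in macrophages by Toll-like receptors, NOD proteins and C-type lectins. These receptors drive chemokine, cytokine and interferon genes, and interferon-stimulated genes are switched on at a DNA element called ISRE, to which a complex with IRF9 binds.

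The 6 libraries held between 5930926 and 6228385 adjusted reads. Pearson's r across rows was 0.952 to 0.957 within RANKL alone, 0.951 to 0.968 within MJ2 and 0.884 to 0.917 between them. MJ2 replicate 2 stood apart from the other MJ2 libraries: its r with the RANKL alone libraries was 0.884 to 0.899, against 0.904 to 0.917 for replicates 1 and 3, and its r with the surface protein libraries was 0.914 to 0.925, against 0.890 to 0.918. RANKL alone replicate 3 had the highest summed osteoclast markers of its group, 33120 adjusted reads against 20914 and 24222. Counts and calls are therefore also given without single libraries. All 10 macrophage markers averaged at least 10 adjusted reads in both groups, while no T-cell, B-cell or epithelial marker did.

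In MJ2 cells, 461 rows changed by 2-fold or more with a Benjamini-Hochberg adjusted p below 0.05 in limma, which was 4.26% of the rows tested. Of these, 364 rows (3.37%) were higher and 97 rows (0.897%) were lower. The higher rows moved further: their median log2 fold change was 2.23, and 116 of them rose at least 8-fold, whereas the lower rows had a median of −1.32 and 9 of them fell at least 8-fold. Over all rows the median log2 fold change was −0.0042. In 124 rows every RANKL alone library was under 10 adjusted reads, so that these rows reached the level tested through the MJ2 libraries alone, where they are high; 85 of them were called higher. The members that entered in this way are counted beside each list that held any called one. The 3 MJ2 values lay outside the range of the 3 RANKL alone values in 3263 rows, 30.2% of those tested, and in all 461 called rows. With 3 libraries a group, an exact permutation test of a single gene cannot go below a two-sided p of 0.1. The count fell to between 189 and 334 when 1 library was left out. It was 189, 261 and 206 without MJ2 replicates 1, 2 and 3, and 318, 334 and 292 without RANKL alone replicates 1, 2 and 3. Of the 461 rows, 151 were called in all 6 of these fits, 135 of them higher and 16 lower.

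**Figure D1:**
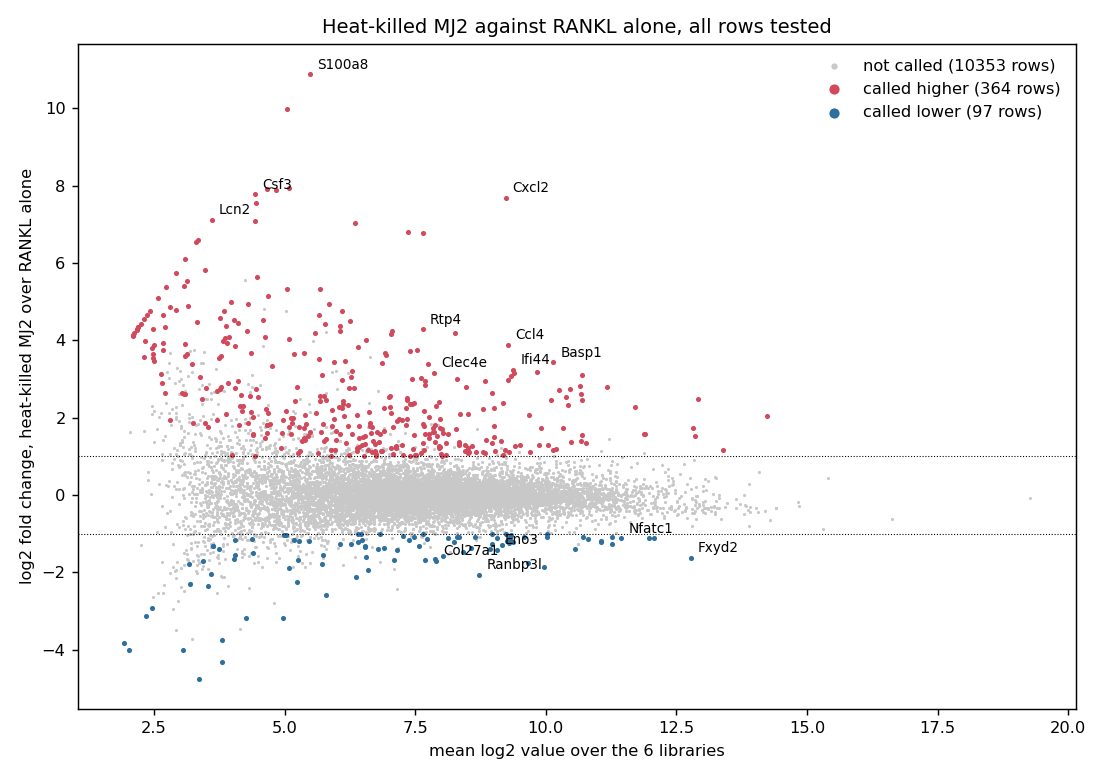
Log2 fold change of MJ2 over RANKL alone (vertical axis) against the mean log2 value over the 6 libraries (horizontal axis), 1 point for each of the 10814 rows tested. Red points are the 364 rows called higher, blue points the 97 rows called lower, and the dotted lines mark a 2-fold change; the red points reach much further from 0 than the blue ones.

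Chemokines, which draw leukocytes to a site, were among the genes that rose most. Of 17 tested genes in a list of chemokines and their receptors, 8 were called higher and none lower. Of these 17, 3 were tested through the MJ2 libraries alone, 1 of them called; the other 14 held 7 calls and had a median log2 fold change of 1.74. Cxcl2 (chr5:90903899-90905938), a neutrophil attractant, read 24.3, 146 and 18.8 adjusted reads with RANKL alone and 6769, 11926 and 7896 with MJ2. Every MJ2 library lay far above the highest control, and the log2 fold change was 7.68 ± 0.76 (SE, n = 3; limma adjusted p = 0.0054), about 206-fold. Without RANKL alone replicate 2, the highest control, it was 8.59. Ccl4, which attracts monocytes and lymphocytes, rose from 126, 161 and 207 to 2381, 2498 and 2311 adjusted reads (log2 fold change 3.88, limma adjusted p = 0.00037). The monocyte attractant Ccl7 rose from 14.9, 7.67 and 28.7 to 384, 383 and 313 (log2 fold change 4.49, limma adjusted p = 0.0047). Ccl2, Ccl3, Ccl5 and Ccl6 were also called, at log2 fold changes of 2.96, 2.27, 2.57 and 1.22, the last in none of the fits with a library left out (adjusted p up to 0.103). Ccl4 and Ccl3 overlap in the annotation, though their log2 values were as much as 3.42 apart. Cxcl3 was called at a log2 fold change of 3.94 but only without RANKL alone replicate 2 once a library was left out, where it was 4.64, with adjusted p up to 0.0991 in the other 5 fits. The receptor Cx3cr1, by contrast, differed by 0.59 and did not pass (limma adjusted p = 0.482).

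The cytokine list held 4 called genes of 13 tested, all higher. Among the 10 that did not enter through the MJ2 libraries alone 2 were called, with a median of 0.89; Csf3 and Il1b were among the other 3. Csf3, the granulocyte colony-stimulating factor, was nearly silent with RANKL alone (1.78, 0.106 and 0 adjusted reads) and read 343, 344 and 275 with MJ2. Against a floor of 3 adjusted reads per library, that is at least 107-fold higher. Il1rn, which encodes the antagonist of the interleukin-1 receptor, read 334, 309 and 263 with RANKL alone and 2948, 2733 and 2498 with MJ2. All MJ2 libraries lay far above the controls, with little spread in either group (9.03-fold, log2 fold change 3.17 ± 0.15, SE, n = 3; limma adjusted p = 0.00033). Tnf rose from 230, 209 and 171 to 1236, 1322 and 1202 adjusted reads, a log2 fold change of 2.63 ± 0.16 (SE, n = 3; limma adjusted p = 0.00067). Il1b rose from 1.79, 0.0845 and 0 to 51.1, 13.5 and 84.6, which is uneven among the MJ2 libraries. It was called (limma adjusted p = 0.0206), but was lost without MJ2 replicate 1 or 3 or RANKL alone replicate 2 or 3, at adjusted p of 0.0599 to 0.0818. Il6 stayed below the level tested, at 1.04, 2.87 and 6.87 adjusted reads with MJ2.

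The largest rise on the log2 scale in any list belonged to an antimicrobial gene. S100a8, 1 subunit of the zinc-binding protein calprotectin, read 0, 0.11 and 0 adjusted reads with RANKL alone and 1899, 2056 and 1906 with MJ2, at least 651-fold higher than the floor. Slpi, a secreted protease inhibitor, read 8.34, 0.108 and 0 against 454, 682 and 482 (log2 fold change 7.93 ± 0.86, SE, n = 3; limma adjusted p = 0.0074), with a log2 fold change of 8.98 without RANKL alone replicate 1. Lcn2, or lipocalin-2, binds bacterial siderophores, and read 0, 0.11 and 0 against 109, 279 and 95.1. This is at least 53.6-fold higher, or at least 33.9-fold without MJ2 replicate 2, the highest library. Wfdc17 was at least 86.2-fold higher. Of the 18 genes in the acute-phase and antimicrobial list only 7 reached the level tested, and 6 of these were called higher, with 4 to 6 called when a library was left out. S100a8, Slpi, Lcn2 and Wfdc17 reached that level through the MJ2 libraries alone, so the count of 6 is no measure of the list; of the other 3 genes 2 were called. Saa3 did not pass (log2 fold change 2.69, limma adjusted p = 0.197). Lyz1 and Lyz2, near-identical lysozyme genes whose reads may be shared, rose by 2.61 and 2.79; Lyz1 was lost without any 1 of the MJ2 libraries (adjusted p up to 0.0834).

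**Figure D2:**
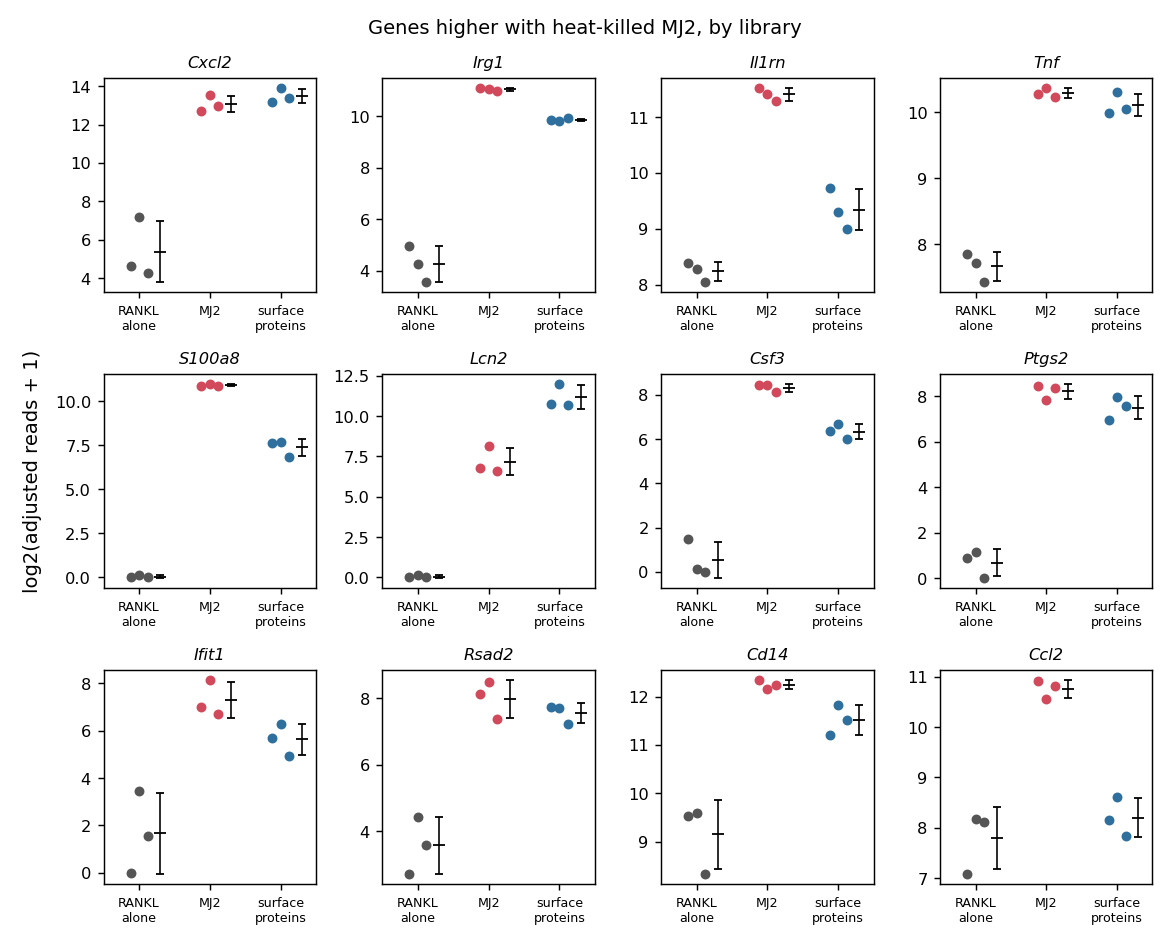
Log2(adjusted reads + 1) of 12 genes in each of 9 libraries, in 3 groups of 3 (grey RANKL alone, red MJ2, blue surface proteins); the horizontal tick and bar beside each group give the mean and SD. In every panel the 3 MJ2 points lie above the 3 RANKL alone points; S100a8, Il1rn, Csf3 and Ccl2 are higher with MJ2 than with surface proteins, and Lcn2 is lower.

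Several genes for enzymes that make itaconate, nitric oxide and prostaglandins rose. Of 20 tested genes in the list that also holds arginine metabolism, 9 were called higher and none lower; 3 of the 9, among them Ptgs2 and Ptges, were tested through the MJ2 libraries alone, and the other 17 genes had a median of 0.23. Irg1 (Acod1, chr14:103047012-103056573), the enzyme that makes itaconate from a citric acid cycle intermediate, read 29.9, 18.4 and 10.9 with RANKL alone and 2197, 2105 and 2012 with MJ2. The log2 fold change was 6.77 ± 0.34 (SE, n = 3; limma adjusted p = 0.00037), and the gene was called in all 6 fits with a library left out. Ptgs2, the inducible cyclooxygenase, read 0.848, 1.19 and 0 against 355, 227 and 325, at least 101-fold higher. Ptges, the next enzyme towards prostaglandin E2, rose by 3.60 on the log2 scale. Nos2, the inducible nitric oxide synthase, read 11.2, 21.7 and 0.973 against 277, 468 and 261 (log2 fold change 5.31, limma adjusted p = 0.0257), or a log2 fold change of 6.05 without RANKL alone replicate 2 and 4.29 without replicate 3. Odc1, which makes putrescine, rose from 690, 477 and 510 to 3308, 2960 and 3417. Nos2 was lost without any 1 of the MJ2 libraries or RANKL alone replicate 1 (adjusted p up to 0.0869), and the prostacyclin receptor gene Ptgir, called at 3.65, was lost in all 6 fits (adjusted p up to 0.0997), at 2.96 without RANKL alone replicate 3. The number called over the list was 4 without any 1 of the MJ2 libraries, and 5 without RANKL alone replicate 1 or 3 and 6 without replicate 2.

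Interferon-stimulated antiviral genes formed the list with the most calls, also without such members. All 38 tested members had a positive log2 fold change and 28 were called higher. Of the 38, 8 were tested through the MJ2 libraries alone, among them Ifit1, Ifit2 and Ifit3, and 7 of these were called; the other 30 held 21 calls and had a median of 2.37. Ifit2 rose from 0, 0.0913 and 0 adjusted reads to 40.9, 85.3 and 46.1, at least 19.1-fold. Rsad2, or viperin, which makes a chain-terminating nucleotide, read 5.53, 20.6 and 10.9 against 277, 359 and 164. Isg15, a ubiquitin-like modifier, read 29.9, 28.2 and 30.6 against 454, 1057 and 401 (log2 fold change 4.24, limma adjusted p = 0.0030). The RNA sensor Ddx58 (RIG-I) read 82.4, 92.8 and 36.6 against 604, 933 and 590, and Ifi44 read 265, 197 and 192 against 1643, 3118 and 1665. In Ifit2, Isg15, Ddx58 and Ifi44 the highest MJ2 library was replicate 2, as it was for Rtp4, which read 76.8, 70.2 and 15.8 against 769, 1094 and 828. Rtp4 (log2 fold change 4.29, limma adjusted p = 0.0159) was lost without any 1 of the 3 MJ2 libraries, at adjusted p of 0.0595 to 0.0604, and its log2 fold change was 3.58 without RANKL alone replicate 3. The number called was 13, 17 and 15 without MJ2 replicates 1, 2 and 3, and 23, 26 and 21 without RANKL alone replicates 1, 2 and 3, with all 38 fold changes still positive in each fit. Irf9, which carries the interferon signal, rose by 1.38, and Irf7 by 3.62. With a library left out, Irf9 was called in all but the fit without MJ2 replicate 1, and Irf7 in none of the fits without an MJ2 library. The interferon gene Ifnb1 was listed at 0 in every library.

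**Figure D3:**
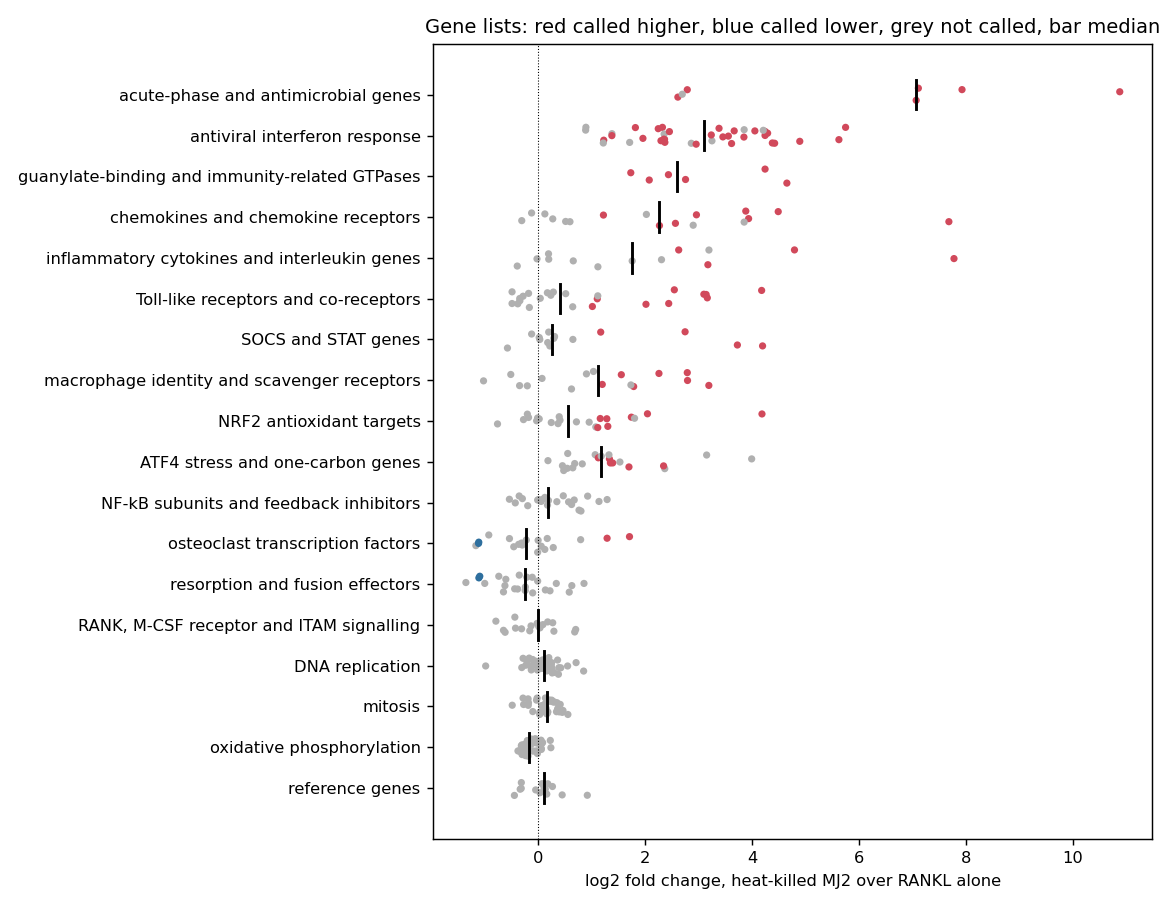
Log2 fold change of MJ2 over RANKL alone (horizontal axis) for the tested members of 18 gene lists (rows); red points were called higher, blue points lower, grey points not called, and the black bar is the median. Acute-phase, interferon and GTPase genes lie to the right of 0, 4, 8 and 2 of them tested through the MJ2 libraries alone, and replication, mitosis and oxidative phosphorylation genes lie close to 0.

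The promoters of these genes were searched for the ISRE letters (GAAA, then 2 bases of any kind, then GAAA) on either strand, in RefSeq promoters of 300 bases, 250 before and 50 after the start site (GRCm38.p6). Windows of 80 bases upstream of 4 called genes are shown with the match in capitals, read 5′ to 3′ on the gene's strand, so that the letters can be seen beside the values of Rsad2 and Isg15 above and of 2 further genes. Ifit1 read 0, 9.83 and 1.96 with RANKL alone and 128, 285 and 104 with MJ2 (log2 fold change 5.63, limma adjusted p = 0.0224). It was lost without any 1 of the MJ2 libraries or RANKL alone replicate 3 (adjusted p up to 0.0769), and its log2 fold change was 4.79 without RANKL alone replicate 1 and 6.51 without replicate 2. Ifit3 read 1.79, 3.35 and 5.92 against 43.0, 134 and 41.2 (log2 fold change 3.85, limma adjusted p = 0.0169), and was lost without MJ2 replicate 1 or RANKL alone replicate 2 (adjusted p up to 0.0534). In both genes MJ2 replicate 2 was the highest library. Ifit3b, also in the interferon list, has the same 80 bases upstream as those shown for Ifit3. Whether Ifit3 and Ifit3b share reads was not tested.
Ifit1 (chr19:34640764-34640843, + strand): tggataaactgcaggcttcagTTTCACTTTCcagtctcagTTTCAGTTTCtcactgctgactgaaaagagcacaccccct
Ifit3 (chr19:34583367-34583446, + strand): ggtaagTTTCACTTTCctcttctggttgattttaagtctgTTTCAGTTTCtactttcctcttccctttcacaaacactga
Rsad2 (chr12:26456533-26456612, - strand): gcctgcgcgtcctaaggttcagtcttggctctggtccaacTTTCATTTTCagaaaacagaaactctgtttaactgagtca
Isg15 (chr4:156200845-156200924, - strand): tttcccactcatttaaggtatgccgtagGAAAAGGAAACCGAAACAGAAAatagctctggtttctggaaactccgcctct
The upstream stretch of Ifit1 and that of Ifit3 each hold a pair of matches, and that of Isg15 holds 3 that overlap. Of the promoters of tested rows, 3.09% held the letters, against 11.7% of those of rows called higher, 8.54% when the interferon list was taken out, 3.45% of those of rows called lower and 48.6% of those of the interferon list. AP-1 letters, TGANTCA, were in 5.04% of tested promoters, 7.81% of all promoters, 13.5% of those called higher and 6.03% of those called lower. They were in 22.9% of those of the interferon list and in 12.7% of those called higher outside it. In 13 promoters called higher both sets of letters were found, and in none did they share bases. The shares for the kappaB letters (GGG, 5 bases of any kind, CC) were 66.9% of tested, 60.7% of higher and 67.2% of lower promoters. Sterol (TCACNCCAC) and E2F (TTTGGCGC) letters were in 1.47% and 0% of promoters called higher, against 1.12% and 1.05% of those tested. Among the 116 promoters called lower, 4 (3.45%) and 1 (0.862%) held them. Windows with an AP-1 match, in capitals, are given for the interleukin-1 receptor antagonist and for the peroxidase gene Prdx1, whose values stand elsewhere in the text.
Il1rn (chr2:24336679-24336758, + strand): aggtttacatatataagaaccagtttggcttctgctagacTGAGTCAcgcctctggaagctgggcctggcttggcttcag
Prdx1 (chr4:116685428-116685507, + strand): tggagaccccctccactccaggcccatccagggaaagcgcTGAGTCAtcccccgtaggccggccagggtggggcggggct

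In the list of guanylate-binding and immunity-related GTPases, proteins that attack vacuoles holding microbes, 10 of 16 genes did not reach the level tested. The 6 that did were called higher, but Gbp3 and Ifi47 entered through the MJ2 libraries alone; the other 4 had a median of 2.26. Gbp7 read 24.3, 33.5 and 26.7 with RANKL alone and 156, 253 and 186 with MJ2 (log2 fold change 2.76, limma adjusted p = 0.0024). Irgm1 read 16.8, 20.6 and 26.7 against 166, 120 and 82.4. Gbp3 rose from 0, 0.0785 and 0 to 12.3, 100 and 11.8, a rise in which MJ2 replicate 2 lay well above the other MJ2 libraries. Gbp3 was called without that library and in none of the other 5 fits (adjusted p up to 0.0824). With 1 library left out, 3 of the 6 genes were called without MJ2 replicate 1 or 3 or RANKL alone replicate 2 or 3, 4 without MJ2 replicate 2 and 5 without RANKL alone replicate 1.

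Receptors that sense microbes rose in part. Of 24 tested genes in the list of Toll-like receptors and co-receptors, 9 were called higher and none lower, with a median of 0.40. Cd14, the co-receptor that hands lipopolysaccharide to TLR4, read 738, 770 and 320 with RANKL alone and 5230, 4566 and 4813 with MJ2 (log2 fold change 3.10, limma adjusted p = 0.0085). Clec4d and Clec4e are C-type lectins that bind mycobacterial glycolipids. Clec4d read 312, 289 and 126 against 1822, 2294 and 1898, and Clec4e read 79.6, 144 and 38.5 against 529, 974 and 639. Irak3, an inhibitory kinase homologue of the Toll-like receptor pathway, read 19.6, 13.1 and 3.94 against 182, 224 and 205. Tlr13 and Tlr3, which bind RNA, rose by 2.44 and 2.02, and Nod2, which senses muramyl dipeptide, by 2.55. Tlr3 was lost without any 1 of the MJ2 libraries or RANKL alone replicate 2, and Nod2 without MJ2 replicate 1 or 3. Tlr2, the receptor for bacterial lipoproteins, differed by 0.28 and did not pass (limma adjusted p = 0.304), nor did Myd88 at 0.23 (0.596). In Cd14, Clec4d, Clec4e and Irak3, RANKL alone replicate 3 was the lowest library of the controls. Without that library 7 genes of the list were called, and 4, 5 and 4 without MJ2 replicates 1, 2 and 3; Clec4e was lost without any 1 of the MJ2 libraries or RANKL alone replicate 1 (adjusted p up to 0.0751).

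Several surface receptors of macrophages rose. Of 16 tested genes in the list of macrophage identity and scavenger receptors, 7 were called higher and none lower, with 4 called without any 1 of the MJ2 libraries. Cd36, which takes up oxidised lipoproteins, read 107, 186 and 122 with RANKL alone and 1027, 950 and 838 with MJ2. Itgam, the integrin CD11b, read 239, 259 and 212 against 1082, 1347 and 998 (log2 fold change 2.26, limma adjusted p = 0.0016), and the lectin Clec4n read 24.3, 33.5 and 18.8 against 194, 227 and 295. Lyz2 read 1518, 1064 and 420 against 5950, 5988 and 6303, and was lost without any 1 of the MJ2 libraries or RANKL alone replicate 2 (adjusted p up to 0.0886). Csf1r and Cd68, also macrophage genes, differed by −0.62 and −0.21 and were not called. Among the 10 cell-type markers of macrophages, 5 were called higher, and 4 of the 10 had a negative log2 fold change. With a library left out, 2 were called without any 1 of the MJ2 libraries and 3 without any 1 of the controls. The summed level of the 10 was 21861 to 23333 adjusted reads with RANKL alone and 28757 to 28913 with MJ2. Within that sum Cd14 and Lyz2 averaged 609 and 1001 with RANKL alone and 4870 and 6080 with MJ2. The sum is therefore no measure of the other markers. In the list of Fc gamma receptors and immunoglobulin-like receptors, 8 of 14 tested genes were called higher and none lower, 1 of the 8 tested through the MJ2 libraries alone, with 4 called without any 1 of the MJ2 libraries or RANKL alone replicate 3. Fcgr2b, the inhibitory IgG receptor, read 8.34, 21.7 and 14.8 against 131, 296 and 129. Lilrb4a and Lilr4b, close paralogs that may share reads, rose by 2.73 and 3.06. Fcgr1, the high-affinity receptor, read 33.7, 3.35 and 2.95 against 111, 208 and 113; it was called at a limma adjusted p of 0.0495, and only without RANKL alone replicate 1 among the fits with a library left out. Calcrl, a receptor for adrenomedullin, rose from 68.3, 42.2 and 43.5 to 684, 726 and 635. Basp1, a membrane-bound protein, rose from 339, 941 and 126 to 3642, 4760 and 2954, but with controls this uneven it was called without RANKL alone replicate 2 alone among those fits (adjusted p up to 0.127 in the others).

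Some feedback regulators of cytokine signalling rose. Of 14 tested genes in the SOCS and STAT list, 4 were called higher and none lower. Socs1 and Cish entered through the MJ2 libraries alone, and the other 12 held 2 calls and had a median of 0.21. Socs3, which limits signals from interleukin-6 family receptors and from the Csf3 receptor, read 47.7, 53.0 and 37.5 with RANKL alone and 716, 445 and 733 with MJ2 (log2 fold change 3.73, limma adjusted p = 0.00099). Cish read 0, 0.0614 and 0 against 11.2, 11.6 and 41.4, at least 7.14-fold higher, or at least 3.81-fold without MJ2 replicate 3, the highest library. The kinase Pim1 read 146, 129 and 129 against 310, 321 and 280. Socs1 rose by 2.75 and was called without RANKL alone replicate 2 alone among the fits with a library left out. None of the 22 genes in the list of NF-kB subunits and feedback inhibitors was called in limma, whereas 10 had an unadjusted p under 0.05 (45.5%, against 22.6% of all rows tested), 9 of them higher, and the largest log2 fold change was 1.29.

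Some target genes of the antioxidant factor NRF2 and genes of iron handling rose. Of 22 tested NRF2 targets, 7 were called higher and none lower, with a median of 0.56 and with 4 called without MJ2 replicate 3 or RANKL alone replicate 3 and 5 without any 1 of the other libraries. Slc7a11, which imports cystine for glutathione, read 77.7, 135 and 33.6 with RANKL alone and 1103, 1960 and 1030 with MJ2 (log2 fold change 4.19, limma adjusted p = 0.0117). Prdx1, a peroxidase, read 3909, 3861 and 4030 against 12211, 13307 and 14017, so that the groups were far apart and each was tight. Fth1, the ferritin heavy chain, read 8688, 10959 and 8858 against 32995, 51739 and 34611. Hmox1, the haem-degrading enzyme, differed by 1.80 and did not pass (limma adjusted p = 0.102), and the factor's own gene Nfe2l2 differed by −0.20. In the iron list 5 of 15 tested genes were called higher, with Lcn2 tested through the MJ2 libraries alone, among them the exporter Slc40a1 and Slc11a1, at log2 fold changes of 2.43 and 1.28; Slc40a1 was lost without RANKL alone replicate 2 or 3 (adjusted p up to 0.0579), and 3 genes of the list were called without replicate 3. Of 21 genes in the ATF4 stress and one-carbon list, all had a positive fold change and 6 were called, among them the asparagine synthetase gene Asns, Pck2 and the amino acid transporter gene Slc7a5, at 1.35, 2.34 and 1.70. With a library left out, Asns and Pck2 held without RANKL alone replicate 2 only (adjusted p up to 0.0933), and Slc7a5 was lost without MJ2 replicate 3. The number of ATF4 genes called was 0 without MJ2 replicate 3, 1 without MJ2 replicate 1 or 2 or RANKL alone replicate 1 or 3, and 8 without RANKL alone replicate 2, the control with the highest Trib3 (70.2 adjusted reads, against 2.72 and 4.93).

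Osteoclast genes were called in both directions. Of 19 tested osteoclast transcription factors, 2 were called lower and 2 higher, with a median of −0.22. Nfatc1, the master regulator, read 3810, 3885 and 4698 with RANKL alone and 1972, 1754 and 1964 with MJ2. The groups did not overlap and the log2 fold change was −1.12 ± 0.15 (SE, n = 3; limma adjusted p = 0.0130), but the call was lost without MJ2 replicate 1 or 3, at adjusted p of 0.0549 and 0.0514. In bulk RNA, fewer osteoclasts and less Nfatc1 RNA per cell cannot be told apart. Fosl2, an AP-1 subunit, read 5728, 6373 and 5661 against 3035, 2520 and 2662 (log2 fold change −1.11, limma adjusted p = 0.0114), and was lost without MJ2 replicate 3 (adjusted p = 0.0514). Mitf, which acts with NFATc1 on osteoclast genes, read 1332, 1595 and 1441 against 748, 760 and 784; its adjusted p was 0.0169 in limma, but at a log2 fold change of −0.93 it fell short of 2-fold. Fos itself, the AP-1 subunit needed for osteoclast formation, read 284, 425 and 453 against 320, 369 and 248, overlapping groups that did not pass the test (log2 fold change −0.30, limma adjusted p = 0.524). Jun and Fosl1 were the factors called higher, at 1.71 and 1.29; Jun was called without RANKL alone replicate 2 alone, and Fosl1, which overlaps Ccdc85b, in none of the 6 fits with a library left out.

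Among genes that carry out fusion and resorption, few were called. Of 23 tested effectors, 2 were called lower and none higher, 17 had a negative fold change, and the median was −0.25. Acp5, which encodes TRAP, read 4955, 6854 and 7423 with RANKL alone and 2895, 2692 and 3204 with MJ2 (log2 fold change −1.11 ± 0.19, SE, n = 3; limma adjusted p = 0.0291). Atp6v0d2, a proton pump subunit needed for cell fusion, read 2954, 3363 and 4790 against 1907, 1466 and 1744 (log2 fold change −1.09, limma adjusted p = 0.0435). Acp5 was called only without RANKL alone replicate 1 and Atp6v0d2 in none of the fits with a library left out, at adjusted p up to 0.102 and 0.122. Ctsk read 6543, 7584 and 11182 against 5560, 5238 and 5389, groups that did not overlap but did not pass the test (log2 fold change −0.61, limma adjusted p = 0.170). Tnfrsf11a, the receptor RANK, read 634, 680 and 739 against 580, 477 and 474, and did not pass either (log2 fold change −0.43, limma adjusted p = 0.158). Mmp9, the gelatinase, differed by 0.58 in the opposite direction without passing. Calcr, the calcitonin receptor of mature osteoclasts, stayed under 4 adjusted reads in these 6 libraries and was not tested. The summed level of the 10 osteoclast markers was 20914 to 33120 adjusted reads with RANKL alone and 13868 to 16029 with MJ2. Of the 9 markers tested, 3 were called lower, and 0 without MJ2 replicate 1 or 3, 1 without MJ2 replicate 2 or RANKL alone replicate 2 or 3, and 2 without RANKL alone replicate 1; their part in the other results was not tested.

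**Figure D4:**
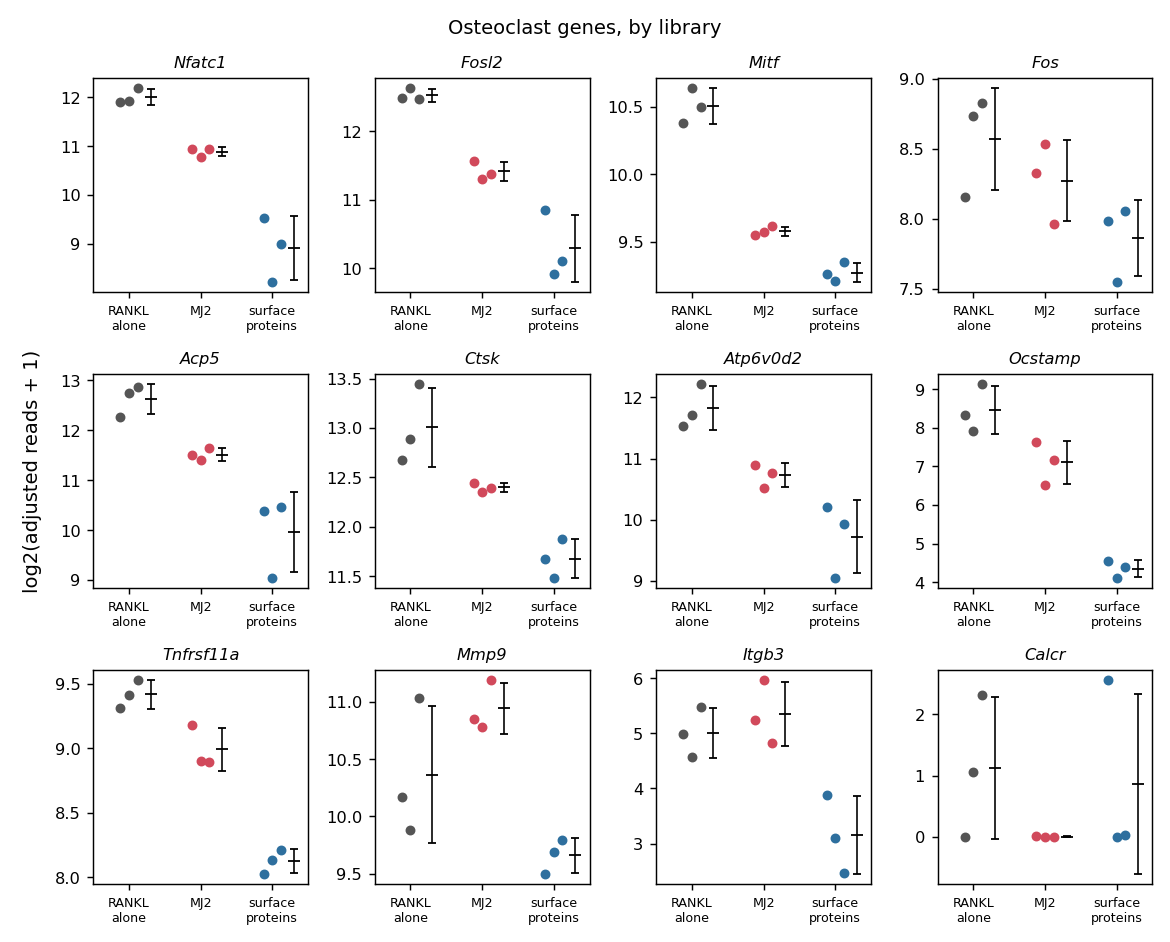
Log2(adjusted reads + 1) of 12 osteoclast genes in each of 9 libraries, in 3 groups of 3 (grey RANKL alone, red MJ2, blue surface proteins), with the mean and SD beside each group. Nfatc1, Fosl2, Acp5 and Atp6v0d2 step down from RANKL alone to MJ2 and again to surface proteins, although the second step of Atp6v0d2 was not called; Mmp9 and Itgb3 do not fall with MJ2.

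A gene from the list of factors that hold osteoclast formation back also rose, and was tested through the MJ2 libraries alone. Id1, a helix-loop-helix inhibitor, read 0, 2.27 and 0 with RANKL alone and 93.0, 49.4 and 120 with MJ2, at least 29.1-fold higher, and was called in all 6 fits with a library left out. None of the 18 genes of RANK, M-CSF receptor and ITAM signalling and none of the 20 genes of calcium and calcineurin signalling was called in limma, with medians of −0.0060 and −0.014; 5 genes of each list had an unadjusted p under 0.05 (27.8% and 25%), near the 22.6% of all rows tested.

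The 12 genes that fell most among the more abundant rows dropped by 1.40 to 2.07 on the log2 scale. Kbtbd11, a BTB-Kelch family gene, read 2061, 1786 and 1927 with RANKL alone and 517, 483 and 578 with MJ2. This fall had the smallest SE of the 12 (log2 fold change −1.87 ± 0.14, SE, n = 3; limma adjusted p = 0.0016), called in all 6 fits with a library left out. Ranbp3l, related to the RAN-binding protein RanBP3, read 1273, 919 and 558 against 150, 170 and 343. Its fall was the largest at −2.07, but it was called only without MJ2 replicate 3 among those fits (adjusted p up to 0.134). Neurl1b, a ubiquitin ligase of the Notch pathway, read 1759, 1297 and 1448 against 453, 339 and 549, and was lost without MJ2 replicate 1. The collagen gene Col27a1 read 487, 371 and 447 against 98.2, 151 and 156. Fxyd2, a subunit that tunes the sodium pump, was the most abundant, at 14653, 14602 and 8646 against 3450, 4124 and 4456. It was called only without RANKL alone replicate 3. Tpcn1, a calcium channel of endosomes, read 722, 790 and 884 against 272, 319 and 315. Slc5a3, the inositol transporter, read 3405, 1965 and 2211 against 947, 866 and 958; it overlaps Mrps6, and was lost without any 1 of the MJ2 libraries or RANKL alone replicate 3. The muscle enolase Eno3, the helicase gene Dhx34, Frmd4b and Ndrg4 fell by 1.42, 1.69, 1.67 and 1.48 on the log2 scale. Frmd4b was lost without MJ2 replicate 1 and Ndrg4 without MJ2 replicate 2 or 3. C130050O18Rik fell by 1.59 at a limma adjusted p of 0.0498, held without MJ2 replicate 2 only, and overlaps 3110082I17Rik.

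Cd72 and Tesk1, chosen after their values were seen, fell by 1.22 and 1.19 with near-identical reads in every library, so that their reads cannot be told apart here; Tesk1 was lost without MJ2 replicate 1. Also chosen after the values were seen were rows that were low with RANKL alone. In 42 of the 364 rows called higher every RANKL alone library was at or under 3 adjusted reads. Stfa3, a cysteine protease inhibitor of the stefin A family, read 0, 0.109 and 0 with RANKL alone and 1027, 1218 and 931 with MJ2. The stefin-like gene Gm5416 read 0, 2.27 and 0.973 against 401, 576 and 357. Gm5483 and Pdpn were low with RANKL alone but not at or under that limit. Gm5483 read 14.0, 7.66 and 27.7 against 1714, 1737 and 1749. Pdpn, the membrane glycoprotein podoplanin, read 1.78, 9.82 and 10.9 against 901, 1060 and 840. Fpr2, a formyl peptide receptor, read 0, 1.19 and 0 against 76.7, 47.4 and 55.9. Stefin A genes are close paralogs, and how shared reads were counted is not given in the sources used here. Rows under 50 adjusted reads on average were called in 7.13% of 2035 cases, against 3.15% of the 3963 rows of 200 to 1000 adjusted reads. Those under 50 include rows tested through the MJ2 libraries alone, so these shares are not a measure of level alone.

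Many basic programmes showed no calls. None of 40 DNA replication genes, 35 mitosis genes, 20 cyclin-dependent kinase inhibitor and G1 genes, 24 cholesterol synthesis genes or 40 oxidative phosphorylation genes passed limma at these limits, with medians of 0.10, 0.16, 0.22, −0.18 and −0.17. Unadjusted p-values under 0.05 numbered 2, 0, 8, 2 and 0 in these lists and 2444 over all rows (22.6%). None of 15 reference genes passed, with a median of 0.11 and 5 unadjusted p-values under 0.05 (33.3%). In the cholesterol efflux list, 1 of 12 genes was called, the lipid droplet gene Plin2 at 1.32 (lost without MJ2 replicate 1 or RANKL alone replicate 1 or 3), and among 24 glycolysis genes Aldoc alone, at −1.09 (held without RANKL alone replicate 2 only). In the list of 32 proton pump and lysosome genes, the protease gene Ctsl rose by 2.32 and Atp6v0d2 fell. Of 21 genes of antigen processing 3 were called higher, led by Cd40 at 3.68, which was tested through the MJ2 libraries alone and held in all 6 fits with a library left out. The others, Nlrc5 and the immunoproteasome gene Psmb8, had log2 fold changes of 1.12 and 1.07; Nlrc5 was called in none of those fits and Psmb8 in 1. The list had 2 calls without MJ2 replicate 3 and 1 without any 1 of the other libraries. Of 15 integrin genes, Itgam and Itgal rose and Itga4 fell by 1.26, the last called only without RANKL alone replicate 3 when a library was left out. Of 25 early-response genes, 3 were called higher, among them Dusp6 at 1.74 and Ier3 at 1.17, and Egr2 fell by 2.59. None was called higher in limma without MJ2 replicate 1 or 3 or RANKL alone replicate 1, 1 without MJ2 replicate 2 or RANKL alone replicate 3, and 4 without RANKL alone replicate 2; Ier3 was called in none of the 6 fits (adjusted p up to 0.133). Dusp6 was lost without MJ2 replicate 1 or 3 or RANKL alone replicate 1, and Egr2 without MJ2 replicate 3 or any 1 of the RANKL alone libraries. In the BCL2 family, 2 of 15 genes rose, the paralogs Bcl2a1a and Bcl2a1d, and Bmf fell by 3.19; the paralogs held without RANKL alone replicate 3 only, and Bmf without MJ2 replicate 2 only. No T-cell, B-cell or epithelial marker reached the level tested. Of the fibroblast markers 1 was tested and not called, and of the osteoblast markers Spp1, which macrophages and osteoclasts also make, rose by 2.48.

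A direct comparison with the surface protein libraries shows where the response to whole heat-killed cells differed. Of 10916 rows tested in those 6 libraries, 1098 (10.1%) were called, 543 higher (4.97%) and 555 lower (5.08%) with MJ2. The count was 342 and 424 without MJ2 replicates 1 and 3 and 1167 without MJ2 replicate 2, and 1048, 612 and 644 without surface protein replicates 1, 2 and 3. The split by direction depended on scaling. It was 645 higher and 453 lower with equal totals, and 556 higher and 536 lower under quantile normalization. Nfatc1 was 739, 297 and 511 adjusted reads with surface proteins, below every MJ2 library (MJ2 over surface proteins 1.97 on the log2 scale, limma adjusted p = 0.0161). Acp5, at 1332, 525 and 1416, was also below (1.55, limma adjusted p = 0.0425), as was Fosl2 (1.13, limma adjusted p = 0.0347) and Kbtbd11 (2.06, limma adjusted p = 0.0140). Nfatc1 and Kbtbd11 were lost without MJ2 replicate 1 or 3 (adjusted p up to 0.0645 and 0.0588), Acp5 held without surface protein replicate 2 only, and Fosl2 without surface protein replicate 1 only. Of the 9 osteoclast markers, 6 were higher with MJ2 than with surface proteins and none lower, and 2 to 5 were called with a library left out, 2 without MJ2 replicate 1 or 3 and 3 without surface protein replicate 3. Lcn2 went the other way. It read 1743, 4129 and 1668 with surface proteins, −4.00 on the log2 scale for MJ2 over surface proteins (limma adjusted p = 0.0102). Cxcl2 differed by −0.42, Tnf by 0.18 and Ccl4 by −0.15 between MJ2 and surface proteins, none of them called (limma adjusted p = 0.338, 0.411 and 0.615).

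Among called rows whose mean log2 value lay above the median and whose groups did not overlap, the 5 with the largest difference in favour of MJ2 were Gm5483, S100a8, Pdpn, Birc5 and Plk1. S100a8 was 198, 209 and 113 adjusted reads with surface proteins, 3.54 lower on the log2 scale than with MJ2 (limma adjusted p = 0.0036). Birc5, the survivin gene of dividing cells, read 1183, 648 and 916 with MJ2, 263, 38.3 and 67.1 with surface proteins and 927, 643 and 657 with RANKL alone. Plk1, a kinase of mitosis, read 902, 522 and 900 with MJ2, 188, 39.3 and 78.1 with surface proteins and 721, 523 and 666 with RANKL alone. Thus the MJ2 and RANKL alone ranges overlapped for both genes, and the surface protein libraries lay below them. Both were lost without MJ2 replicate 1 or 3 or surface protein replicate 3, and Birc5 also without surface protein replicate 2. Of 35 mitosis genes 33 were higher with MJ2 than with surface proteins, and of 40 DNA replication genes 31, with none lower and medians of 2.21 and 1.66. With 1 library left out, 5 to 29 and 8 to 28 of them were called. The counts were 5 and 8 without MJ2 replicate 1, 5 and 11 without MJ2 replicate 3, 21 and 19 without surface protein replicate 2 and 11 and 18 without surface protein replicate 3, and all 35 mitosis genes kept a positive difference in each fit.

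**Figure D5:**
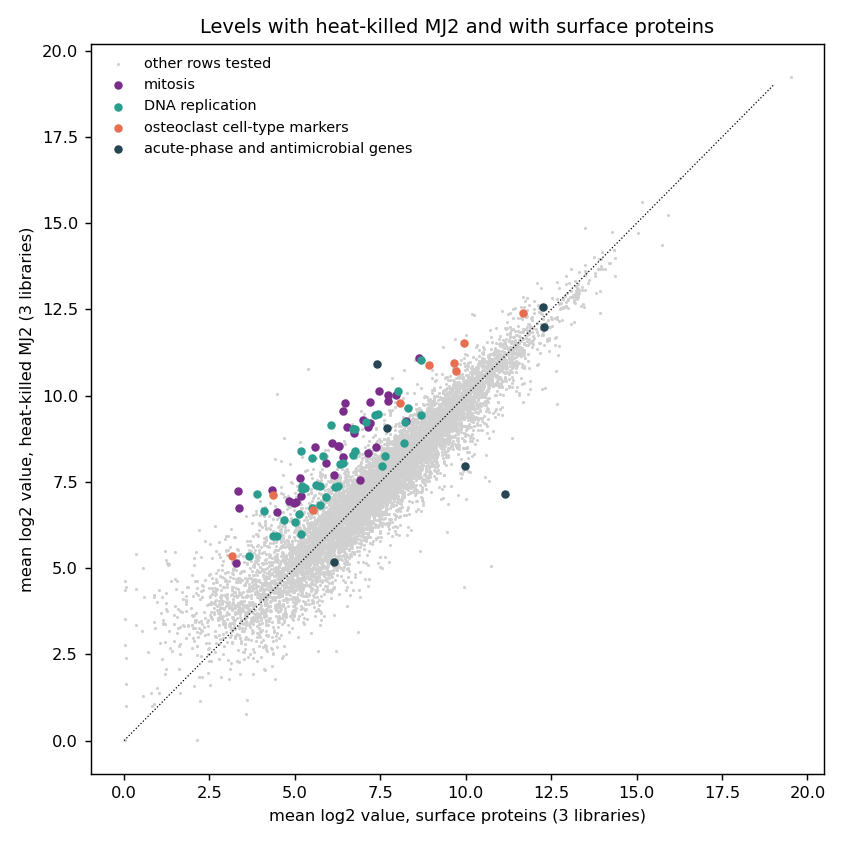
Mean log2 value with MJ2 (vertical axis) against that with surface proteins (horizontal axis), 3 libraries each, for the rows tested between MJ2 and RANKL alone; the dotted line marks equal levels. Mitosis (purple), DNA replication (green) and osteoclast marker genes (orange) lie above the line, while acute-phase genes (dark blue) lie on both sides of it.

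By the same limits, the 5 rows with the largest difference in favour of surface proteins were Car6, Lcn2, Cox6a2, Trib3 and Angptl6. Car6, a secreted carbonic anhydrase, read 17.4, 99.6 and 18.6 with MJ2 and 1180, 2431 and 1773 with surface proteins, −5.70 on the log2 scale (limma adjusted p = 0.0087), or −6.50 without MJ2 replicate 2. Trib3, a pseudokinase gene of the ATF4 response, read 135, 452 and 102 with MJ2 and 1539, 1809 and 1574 with surface proteins. MJ2 replicate 2 was the highest MJ2 library for each of the 5 genes, between the other MJ2 libraries and the surface protein libraries. Car6 and Lcn2 were called in all 6 fits with a library left out, Trib3 and Angptl6 without MJ2 replicate 2 or surface protein replicate 1, and Cox6a2 without MJ2 replicate 2 only. Of 21 ATF4 genes 10 were lower with MJ2 than with surface proteins and none higher, and of 17 Fc and immunoglobulin-like receptor genes 9 were lower and none higher. Those counts were 2 to 12 and 3 to 9 with a library left out, 12 and 9 of them without MJ2 replicate 2. They were 2 and 3 without MJ2 replicate 1 or 3 or surface protein replicate 2. They were 3 and 5 without surface protein replicate 3, and 8 and 5 without surface protein replicate 1. Of the 17 receptor genes, 14 were also tested against RANKL alone, and 6 of these were called lower than with surface proteins. The others reached the level tested only with the surface protein libraries counted, so the count of 9 is no measure of the list. Of 18 chemokine genes, 7 were higher and none lower, among them Ccl2, which read 1917, 1501 and 1801 with MJ2 and 284, 388 and 227 with surface proteins (2.56 on the log2 scale, limma adjusted p = 0.0052). With a library left out 3 to 7 of them were called, 3 without MJ2 replicate 1 or 3. Il1rn and Csf3 were higher with MJ2 by 2.07 and 1.98, and Irg1 by 1.19, in all 6 of those fits.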

How the data were processed

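RNA of RAW264.7 cells was sequenced by QuantSeq 3′ mRNA libraries (75 bp single-end reads), which count reads near transcript ends. The study's methods state quantile normalization between samples, and the submitters' processing notes name Bowtie2, bedtools and mm10; versions, strand setting and handling of shared reads are not given in the sources used here. The values the authors deposited are log2 values of an adjusted read number plus 1, to 3 decimals. Their sorted values differed between libraries by up to 1.03, and low values fell within 0.25 of whole multiples of a step of 0.929 to 1.09. Because the unit is log2, no count model was run. In RANKL alone replicate 2 and MJ2 replicate 1, all 15503 rows that are above 0 in any of the 6 libraries are above 0.

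Samples were grouped by their titles. Rows reaching 10 adjusted reads in 3 or more of 6 libraries were fitted with lmFit and eBayes of limma 3.58.1 (R 4.3.3), Benjamini-Hochberg over all rows tested, and called at 2-fold or more with an adjusted p below 0.05. Fold changes are on the log2(value + 1) scale, which understates low genes. The filter's edge fell between Gm20324 and Sec1 (10.2 in the library ranked 3 from the top, tested) and Palm and E130317F20Rik (9.90, not tested). The script was tested on simulated data. Tables were made with Python 3.11.15, pandas 2.3.3 and numpy 2.4.6, and figures with matplotlib 3.10.9. No libraries were identical (chi-square per degree of freedom 7.47 to 17.7). Same-numbered MJ2 and RANKL alone libraries deviated together with correlations of 0.03, 0.13 and 0.05, against −0.10 to 0.06 for other pairs. With 3 libraries a group, such small values cannot settle whether the numbers pair samples.

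Genes named were the 12 largest and 12 smallest fold changes among called rows with non-overlapping groups and a mean above the median, up to 4 called members of each of 39 gene lists, genes the study names, and the 5 largest differences each way from surface proteins within the same limits on overlap and mean. Members and lists were chosen with earlier results of these data known. Of 778 listed genes, 774 are in the files and 630 were tested. Promoters and coordinates are RefSeq's (GRCm38.p6, the build of mm10); 10788 tested rows matched a RefSeq gene and 8718 a promoter. Intervals for depth are not given, since deposited values are not counts; rows near 10 adjusted reads are the least precise. Results on some genes are not reported here.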

Additional observations from a re-analysis of the deposited data

How the results depend on the processing

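The 461 calls became 453 under quantile normalization, 461 with equal totals, 360 with 10 adjusted reads in every library, 372 with a mean of at least 1, 436 and 509 with pseudocounts of 0.5 and 5, 553 with all 9 libraries in the fit, 576 with an intensity trend and robust moderation, and 636 without the fold limit. The calls numbered 267 with no filter on low values and 799 at an unadjusted p, of which 580 were higher, against 364 at the adjusted p. With the replicate number as a block there were 289 calls; 1 MJ2 library, replicate 3, correlated best with RANKL alone replicate 1 (0.06). Leaving out 1 library gave 189 to 334 calls, and 342 to 1167 in place of 1098 for MJ2 against surface proteins. The count without MJ2 replicate 2 was the highest of the latter; the cause was not tested. Of 1494 refits of the 95 named genes, 0 turned direction and 296 lost the call. Over the gene lists 125 members were called, 75 with no filter and 62 to 100 with 1 library left out (62, 74 and 63 without MJ2 replicates 1, 2 and 3; 86, 100 and 81 without RANKL alone replicates 1, 2 and 3), the last set of fits chosen after seeing the data. The mean r between MJ2 and RANKL alone libraries was 0.903 over tested rows and 0.935 among rows with 10 adjusted reads in every library. Depth limits most the rows near 10 adjusted reads, where a change that did not pass may not have been detectable.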
